A study of Mus musculus with 18 samples.

Results

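Primary sensory neurons of the dorsal root ganglion are described here by 35 genes. They were taken by name, with no threshold on the values of these libraries. They comprise 15 genes that are general to sensory neurons or their development, 13 genes of pain and itch neuron classes, and 7 genes of large-diameter and touch neuron classes. The dorsal horn values analysed held 33 of them among 15193 genes, and those of the colon held 27 among 14987. Drgx and Mrgpra3 were not analysed here.

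Bulk RNA sequencing was carried out on the colon and the spinal dorsal horn of mice, with 18 libraries in all. Per the labels, the mice were of WT genotype. In each tissue 3 groups had 3 libraries each. The nivolumab group carried bone cancer and was given nivolumab, an antibody raised against the human form of PD-1, which restrains T cells. The cancer group carried the bone cancer and received control IgG, and the sham group had sham surgery and control IgG. All 3 groups thus received an antibody or IgG, and both the nivolumab and the cancer group bore the tumour. The tumour cells, the strain, the age and sex of the mice, the dose and the time of tissue collection were not stated in the sources used here, nor was any pooling of animals. The labels do not state that the libraries of a group came from separate mice, so the spread behind the p-values may be technical. The study's title names pain from bone cancer and PD-1 blockade, and the comparisons ask how the groups differed in each tissue.

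A dorsal root ganglion neuron has its cell body in a ganglion beside the cord, a peripheral axon in skin, muscle, bone or viscera, and a central axon that ends in the spinal cord. Small-diameter neurons detect painful heat, chemicals, itch compounds and some gentle touch, and large-diameter neurons carry touch and limb position. Messenger RNA of these neurons lies largely in the cell bodies, outside the dorsal horn. Neurofilaments, beta-III tubulin and the neurotrophin receptors Ntrk2 and Ntrk3 are also made by cells within the cord.

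Of these genes, the Mas-related G protein-coupled receptors are known as markers of single sensory neuron classes. Mrgprd, a receptor for beta-alanine, marks a class of skin-innervating C fibres, Mrgprb4 marks C fibres that respond to stroking, and Mrgprx1, also called MrgprC11, is a receptor for itch-inducing peptides. In the GENCODE annotation of GRCm38, Mrgprd spans chr7:145314835-145324086 on the + strand. Mrgprb4 (chr7:48198070-48199288), Mrgprb5 (chr7:48167983-48169019) and Mrgprx1 (chr7:48020971-48027597) lie on the - strand of the same chromosome. The annotated exons of Mrgprb4 and Mrgprb5 aligned with 72.5% identity and shared 8 stretches of 50 bases, so some reads of this pair could be assigned to either gene, and their values are uncertain to that extent. The other pairs among these 4 receptors shared no such stretch. The RefSeq promoters of the pair (GRCm38.p6, 250 bases before to 50 bases after the start) are shown because they were 82.2% identical, against 48.2% to 52.1% for each other pair of the 4. For both genes of the pair the RefSeq start lies inside the GENCODE gene, so the 2 annotations differ. Part of each promoter shown for the pair is therefore GENCODE exon, and its identity partly repeats that of the exons. In these 2 sequences capitals mark bases that differ from the aligned partner or have no counterpart in it. The promoters of Mrgprd and of Avil, the gene of the actin-binding protein advillin, follow because both genes were high in the same 5 dorsal horn libraries, with capitals at the sequence TGTGGT, the core that RUNX factors bind, searched on both strands. Avil held 1 match and Mrgprd none. Coordinates are those of the 300 bases shown.
Mrgprb4, chr7:48199129-48199428, - strand: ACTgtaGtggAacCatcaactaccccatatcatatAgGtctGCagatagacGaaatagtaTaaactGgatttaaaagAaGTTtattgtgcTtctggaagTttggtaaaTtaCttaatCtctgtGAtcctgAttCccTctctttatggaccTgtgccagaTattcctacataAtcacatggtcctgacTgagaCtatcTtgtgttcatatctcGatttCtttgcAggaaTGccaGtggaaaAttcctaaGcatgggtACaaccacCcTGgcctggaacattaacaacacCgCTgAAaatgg
Mrgprb5, chr7:48168936-48169235, - strand: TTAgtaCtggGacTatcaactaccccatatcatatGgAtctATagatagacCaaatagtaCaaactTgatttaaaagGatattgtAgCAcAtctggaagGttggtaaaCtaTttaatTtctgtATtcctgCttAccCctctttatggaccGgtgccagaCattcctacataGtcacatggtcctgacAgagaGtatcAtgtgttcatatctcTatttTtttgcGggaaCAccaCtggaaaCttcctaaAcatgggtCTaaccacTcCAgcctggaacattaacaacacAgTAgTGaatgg
Mrgprd, chr7:145314585-145314884, + strand: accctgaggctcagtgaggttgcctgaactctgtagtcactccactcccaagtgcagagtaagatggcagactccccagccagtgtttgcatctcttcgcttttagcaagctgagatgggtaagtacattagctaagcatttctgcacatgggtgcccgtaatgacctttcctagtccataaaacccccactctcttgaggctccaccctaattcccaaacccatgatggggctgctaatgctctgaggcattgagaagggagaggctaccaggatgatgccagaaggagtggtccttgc
Avil, chr10:127000459-127000758, + strand: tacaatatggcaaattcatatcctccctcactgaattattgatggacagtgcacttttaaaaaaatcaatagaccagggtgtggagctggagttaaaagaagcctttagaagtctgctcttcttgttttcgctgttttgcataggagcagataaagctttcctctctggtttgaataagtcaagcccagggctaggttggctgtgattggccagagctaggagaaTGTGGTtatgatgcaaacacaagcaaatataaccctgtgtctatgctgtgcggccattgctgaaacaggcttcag
Of the genes listed, 22 had promoters in the RefSeq set, 25 in all. TGTGGT was found in 5 of the 25 (20%), those of Avil, Runx1, Ntrk2, Runx3 and Etv1, against 16.8% of all 32851 promoters of the same length. TAATTA, a core that homeodomain factors such as the ISL and POU4F families bind, was searched in the same way and was found in 0 of the 25, against 5.29% of all promoters. A match is a stretch of letters and was not tested as a binding site.

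Total counts were 21855085 to 29071908 per dorsal horn library and 20896854 to 30803957 per colon library, and 3 counts corresponded to 0.103 to 0.137 CPM (the gene's count over the total count of the library, scaled to 1000000) in the dorsal horn. Markers of dorsal horn neurons were present in every dorsal horn library, with the summed CPM of 11 such genes at 4046 to 4147 in nivolumab, 5060 to 5554 in cancer and 4479 to 4782 in sham libraries. Most of this sum was Snap25, at 2920 to 3931 CPM, which also stands on the list of enteric neuron genes. The sum is therefore not a measure of dorsal horn neurons alone. Slc6a5, a glycine transporter gene of the 11, had at least 354 CPM in each of these libraries. Dorsal horn libraries of the same group differed widely in the ganglion genes. All 3 nivolumab libraries, cancer library 3 and sham library 3 held many of these transcripts, and cancer libraries 1 and 2 and sham libraries 1 and 2 held few. Cancer 3 and sham 3, which these same genes singled out, were both above those 4 libraries in 25 of the 33 genes. The 8 exceptions were Tubb3, Mrgprb5, Ntrk2, Ntrk3, Etv1, Nefh, Nefm and Nefl. The 3 nivolumab libraries were above all 6 others in 21 genes, against 11.9% of all genes tested, and nivolumab 2 was the lowest of its group in 27. The share of all genes was not computed for the counts of 25 and 27. The list was chosen with earlier results of these data known. In addition, 8 of the 33 genes passed the filter on low counts through the nivolumab libraries alone. These counts are therefore descriptions and no support. How the dorsal horn was dissected is not stated in the sources used here. More ganglion or nerve root tissue in a sample, more sensory neurons and more RNA per neuron cannot be told apart in bulk tissue, so a gene said to have risen was higher in the libraries and not necessarily in each cell.

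**Figure D1:**
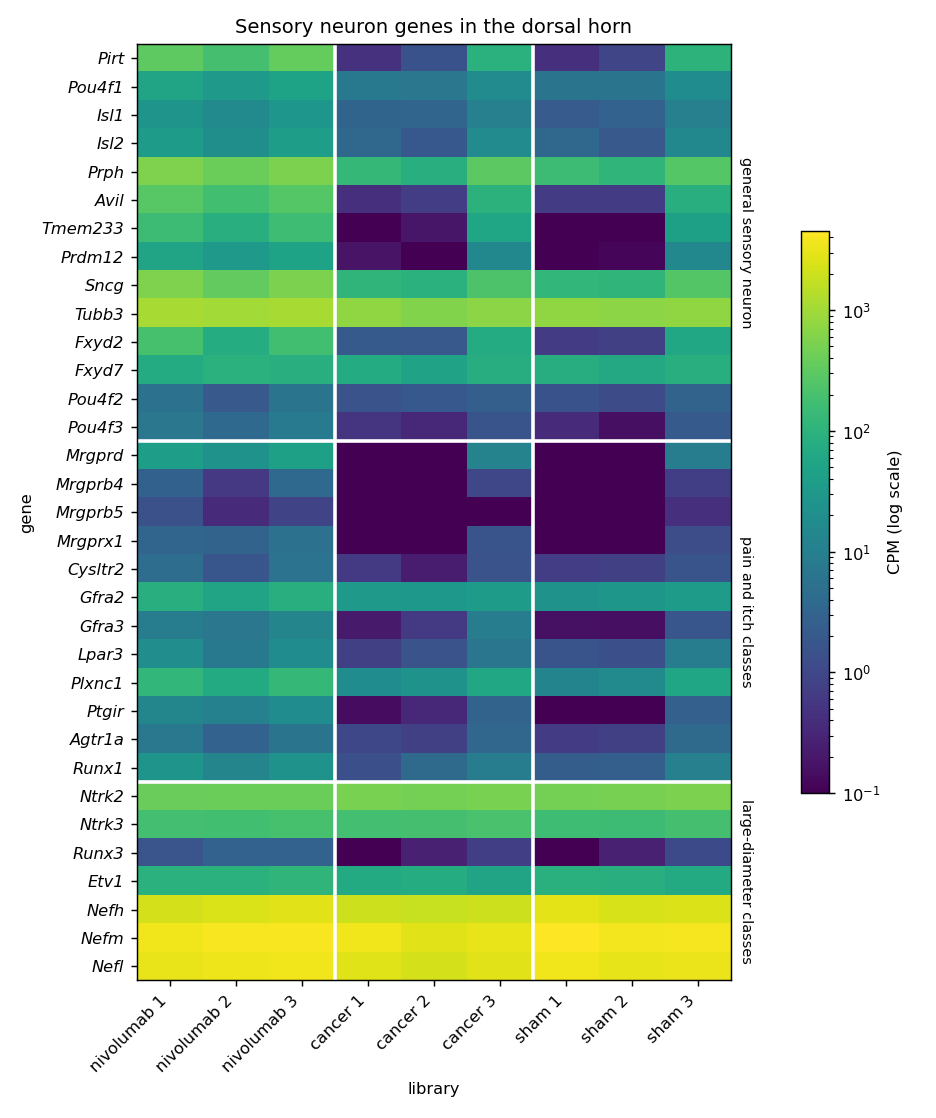
CPM of the 33 sensory neuron genes in the 9 dorsal horn libraries, coloured on a log scale with values under 0.1 drawn as 0.1, with rows grouped by role and columns by group. The nivolumab libraries, cancer 3 and sham 3 are bright in most rows of the upper 2 blocks, whereas the rows from Ntrk2 downwards, other than Runx3, vary little.

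Values are CPM in dorsal horn libraries 1, 2 and 3 of each group, in that order. Pirt, a membrane protein that regulates the heat-gated channel TRPV1 and is found throughout sensory neurons (chr11:66911981-66929876), had 312, 194 and 360.4 CPM in nivolumab libraries, 0.464, 1.47 and 92.8 in cancer libraries and 0.437, 0.92 and 101 in sham libraries. Its level in each nivolumab library was above that in all other libraries, while within cancer and sham 1 library of 3 stood far above the other 2. Avil had 273, 174 and 271 CPM in nivolumab, 0.428, 0.697 and 97 in cancer and 0.675, 0.651 and 83.3 in sham libraries. Tmem233, a transmembrane protein that associates with sodium channels, had 154, 85.8 and 163 CPM in nivolumab, 0, 0.194 and 54.2 in cancer and 0, 0 and 43.9 in sham libraries. Both showed the same high and low libraries as Pirt. Avil shares 165 exon bases with Tsfm on the opposite strand and Prdm12 shares 200 with the antisense gene Gm13425, and without a stated strand setting such reads cannot be told apart. Prdm12, a transcriptional regulator needed for the formation of pain-sensing neurons, had 52.2, 31.5 and 50.7 CPM in nivolumab, 0.178, 0 and 14.6 in cancer and 0, 0.115 and 14.7 in sham libraries. Fxyd2, the gamma subunit of the sodium pump, had 203, 77.2 and 176 CPM in nivolumab, 2.07, 2.01 and 72.8 in cancer and 0.635, 0.766 and 58.4 in sham libraries. With a level of at most the floor of 3 counts set to that floor, the highest library was more than 100 times the lowest in 7 genes, namely these 5, Mrgprd and Ptgir.

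Most transcription factors of the general sensory neuron genes were high in the 3 nivolumab libraries, cancer 3 and sham 3. Pou4f1, also called Brn3a, had 52.5, 33.4 and 50.7 CPM in nivolumab, 7.49, 6.97 and 17.8 in cancer and 6.19, 6.13 and 18.5 in sham libraries. Isl1, a LIM homeodomain factor that is also made by motor neurons, had 25.8, 17.2 and 27.9 CPM in nivolumab, 3.18, 3.25 and 10.4 in cancer and 2.14, 2.87 and 10.4 in sham libraries. Isl2, its relative, had 38, 20.8 and 40.3 CPM in nivolumab, 3.68, 1.9 and 17.2 in cancer and 3.61, 1.95 and 15.1 in sham libraries. In all 3 the nivolumab libraries lay above the others without overlap, and the remaining libraries held at least 1.90 CPM. Pou4f3, known from hair cells of the inner ear, had 6.94, 3.96 and 8.13 CPM in nivolumab, 0.5, 0.349 and 1.65 in cancer and 0.357, 0.153 and 2.12 in sham libraries. Pou4f2, known from the retina, had 5.59, 1.96 and 6.07 CPM in nivolumab, 1.53, 1.9 and 2.52 in cancer and 1.51, 1.15 and 3.01 in sham libraries. Its groups overlapped, since nivolumab 2 was below cancer 3 and sham 3.

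Several genes of the general group encode structural or membrane proteins that other neurons also use. Prph, the intermediate filament peripherin of peripheral and motor neurons, had 557, 413 and 537 CPM in nivolumab, 124, 84.6 and 299 in cancer and 158, 113 and 264 in sham libraries. Sncg, gamma-synuclein, had 578, 348 and 535 CPM in nivolumab, 109, 94.7 and 227 in cancer and 121, 109.7 and 253 in sham libraries. Tubb3, the neuronal beta-III tubulin (chr8:123411424-123422015), had 1120.3, 1032 and 1124 CPM in nivolumab, 748, 591 and 709 in cancer and 751, 712 and 773 in sham libraries. Each of these was higher in every nivolumab library than in any other library, but the spread within cancer and sham was far narrower for Tubb3. Fxyd7, a sodium pump regulator of the brain and cord, had 74.3, 91.9 and 83.2 CPM in nivolumab, 72.2, 48.9 and 80.6 in cancer and 78.9, 63.1 and 83.1 in sham libraries, and the groups overlapped.

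Among the pain and itch class genes, Mrgprd had 39.1, 24.4 and 45 CPM in nivolumab, 0, 0 and 12.2 in cancer and 0, 0 and 9.04 in sham libraries. Mrgprx1 had 3.36, 2.99 and 5.7 CPM in nivolumab, 0, 0 and 1.6 in cancer and 0, 0 and 1.26 in sham libraries. Mrgprb4 had 2.79, 0.585 and 3.83 CPM in nivolumab, 0, 0 and 0.961 in cancer and 0, 0 and 0.744 in sham libraries. The 4 libraries poor in Pirt held no count of any of these receptors, and for Mrgprb4 the groups overlapped, since nivolumab 2 was below cancer 3 and sham 3. Mrgprb5, whose promoter resembles that of Mrgprb4, had 1.44, 0.378 and 0.883 CPM in nivolumab, 0, 0 and 0 in cancer and 0, 0 and 0.446 in sham libraries. It rested on 68 counts over the nivolumab, 0 over the cancer and 12 over the sham libraries, and cancer 3, which held the other receptors, had none of it.

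Receptors for trophic factors followed. Gfra2, the receptor for neurturin (chr14:70890120-70979838), had 84.7, 52.7 and 86.8 CPM in nivolumab, 33.1, 30.9 and 37.7 in cancer and 23.9, 29.2 and 37.5 in sham libraries. Every nivolumab library was above every other library, and the other 6 lay close together. Gfra3, the receptor for artemin, had 8.91, 7.02 and 12.9 CPM in nivolumab, 0.214, 0.62 and 9.56 in cancer and 0.159, 0.153 and 1.75 in sham libraries. Cancer 3 was within the nivolumab range for Gfra3, so the groups overlapped. Plxnc1, a receptor for semaphorin 7A, had 121, 68.5 and 126 CPM in nivolumab, 18.6, 23.3 and 60.1 in cancer and 12.4, 16.5 and 54.3 in sham libraries, with no overlap of nivolumab with either.

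The remaining receptors bind lipids and peptides. Cysltr2, a receptor for cysteinyl leukotrienes found in itch neurons, had 4.63, 1.75 and 5.92 CPM in nivolumab, 0.607, 0.232 and 1.56 in cancer and 0.714, 0.766 and 1.6 in sham libraries. Lpar3, a receptor for lysophosphatidic acid, had 18.9, 7.5 and 18.4 CPM in nivolumab, 0.749, 1.55 and 6.63 in cancer and 1.63, 1.38 and 9.37 in sham libraries. For Lpar3, sham 3 exceeded nivolumab 2, whereas the cancer libraries lay below all nivolumab libraries. Ptgir, the prostacyclin receptor, had 13.8, 11.2 and 18 CPM in nivolumab, 0.143, 0.349 and 2.97 in cancer and 0.0794, 0.0766 and 2.64 in sham libraries. Agtr1a, a receptor for angiotensin II, had 7.42, 2.85 and 6.29 CPM in nivolumab, 1.03, 0.775 and 3.43 in cancer and 0.675, 0.766 and 3.98 in sham libraries. Nivolumab 2 was below both cancer 3 and sham 3 for Agtr1a. Runx1, a transcription factor that shapes the non-peptidergic pain-sensing class and is also made by blood cells, had 25.1, 13.2 and 24.8 CPM in nivolumab, 1.36, 4.11 and 9.2 in cancer and 2.38, 2.61 and 10.4 in sham libraries.

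The large-diameter class genes had another pattern. Runx3, a transcription factor of limb-position neurons, was the single one of the 7 with the order seen above, at 1.7, 2.89 and 2.87 CPM in nivolumab, 0, 0.271 and 0.732 in cancer and 0, 0.268 and 1.12 in sham libraries. Ntrk2, the receptor for BDNF (chr13:58806569-59133970), had 382, 399 and 411 CPM in nivolumab, 532, 484 and 519 in cancer and 489, 504 and 538 in sham libraries. It was lower in every nivolumab library than in any other library. Ntrk3, the receptor for neurotrophin 3, had 184, 177 and 196 CPM in nivolumab, 182, 193 and 208 in cancer and 162, 154 and 190.3 in sham libraries, with overlap among all groups. Etv1, a transcription factor of limb-position neurons, had 95.4, 93 and 111 CPM in nivolumab, 68.6, 76.6 and 53.1 in cancer and 89.9, 84.2 and 68.9 in sham libraries. Every nivolumab library was above every other library for Etv1. Nefh, the heavy neurofilament subunit, had 2246, 2474 and 2752 CPM in nivolumab, 2018, 1808 and 2001 in cancer and 2857, 2370.5 and 2536 in sham libraries. Nefl, the light subunit, had 3199, 3364 and 3529 CPM in nivolumab, 2669.5, 2298 and 2729 in cancer and 3577, 2965 and 3303 in sham libraries. Both were above all cancer libraries in all nivolumab libraries and overlapped between nivolumab and sham. Nefm, the medium subunit, had 3638, 3970.5 and 3984 CPM in nivolumab, 3579.9, 2802 and 3151 in cancer and 4496, 3778 and 3908 in sham libraries, with the same order against cancer and overlap with sham. Nefl and Nefm overlap on opposite strands by 1108 exon bases, 32.8% of the exon bases of Nefl and 19.2% of those of Nefm, and no source used here states the strand setting of the counting, so their counts are uncertain.

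Per kilobase of annotated exon, the most abundant genes of the list in the nivolumab libraries were Nefl at 946 to 1044 CPM per kilobase, Nefm at 629 to 689, Nefh at 562 to 689, Sncg at 409 to 678 and Tubb3 at 552 to 602. Pirt stood at 46.1 to 85.8 CPM per kilobase and Mrgprd at 7.77 to 14.3 in the same libraries. In sham libraries 1 and 2 the same 3 neurofilament genes stood at 594 to 1058 CPM per kilobase, whereas Pirt stood at 0.104 and 0.219. The pain and itch class genes took 2.45, 1.46 and 2.4% of the counts of all 33 genes in the nivolumab libraries, 0.548, 0.722 and 1.39% in the cancer and 0.327, 0.471 and 1.07% in the sham libraries (exact 95% binomial interval 2.4% to 2.51% in nivolumab 1, which had the widest). The large-diameter class genes took 72, 79.4 and 74.4% in nivolumab, 88.9, 89.5 and 82.5% in cancer and 90.9, 90.3 and 85% in sham libraries. These shares weigh long genes more. Divided by exon length, the pain and itch share was 1.89, 1.21 and 1.96% in nivolumab, 0.478, 0.599 and 1.18% in cancer and 0.291, 0.411 and 0.888% in sham libraries, in the same order of libraries 1 to 3.

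In 5 libraries Pirt had at least 1000 counts, so that other genes could be set against it within a library. These were nivolumab 1, 2 and 3, cancer 3 and sham 3. Of the genes listed, 19 had a top level in the other 4 libraries under 50% of their lowest level in these 5. In 13 of the 19 the count as a percentage of the Pirt count varied by less than 2-fold over the 5 libraries, whereas Pirt itself was highest in nivolumab 3 at 360.4 CPM and lowest in cancer 3 at 92.8 CPM. Prdm12 stood at 16.7, 16.3 and 14.1% of Pirt in nivolumab 1, 2 and 3, 15.7% in cancer 3 and 14.6% in sham 3. Tmem233 stood at 49.2, 44.3 and 45.1% in nivolumab 1, 2 and 3, 58.4% in cancer 3 and 43.6% in sham 3. Mrgprd stood at 12.5, 12.6 and 12.5% in nivolumab 1, 2 and 3, 13.2% in cancer 3 and 8.98% in sham 3. Over the 5 libraries these 3 genes therefore varied far less against Pirt than Pirt did between libraries.

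The ratio varied by 2-fold or more in the other 6 genes, Mrgprb4, Gfra3, Lpar3, Ptgir, Agtr1a and Runx3. Gfra3 stood at 2.86, 3.62 and 3.57% of Pirt in nivolumab 1, 2 and 3, 10.3% in cancer 3 and 1.74% in sham 3, the widest range of the 19 at 5.93-fold. Ptgir stood at 4.41, 5.77 and 4.98% in nivolumab 1, 2 and 3, 3.2% in cancer 3 and 2.62% in sham 3, and was higher in each nivolumab library. Mrgprb4 was 6.67% of the sum of Mrgprb4 and Mrgprd counts in nivolumab 1, 2.34% in nivolumab 2, 7.84% in nivolumab 3, 7.29% in cancer 3 and 7.6% in sham 3. The share in nivolumab 2 had an exact 95% binomial interval of 1.37 to 3.72%, below the other 4 values and below the interval of nivolumab 1, 5.17 to 8.43%. These ratios describe single libraries and carry no test between groups.

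**Figure D2:**
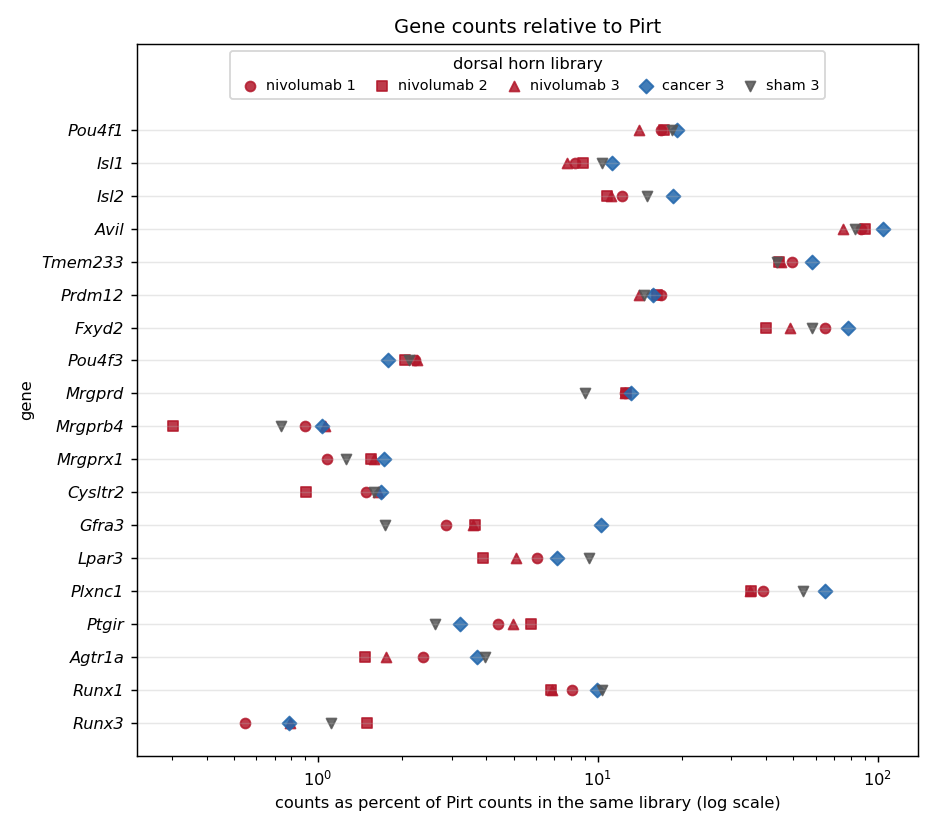
Counts of 19 genes as a percentage of the Pirt count of the same library, on a log axis, in the 5 dorsal horn libraries with at least 1000 Pirt counts, 1 symbol per library. The symbols of Prdm12, Avil and Pou4f3 lie close together, while those of Gfra3 lie as far apart as 10.3% in cancer 3 and 1.74% in sham 3.

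Nivolumab was first set against cancer in the dorsal horn. Tubb3, Gfra2, Nefl, Nefh, Etv1, Cysltr2, Pou4f1 and Sncg rose, Ntrk2 fell, and Mrgprb5 was also called higher, so that 9 genes of 33 were higher, 1 was lower and 23 did not pass. Of all 13609 genes tested by edgeR's quasi-likelihood test, 17.2% passed at an adjusted p below 0.05, 8.63% higher and 8.6% lower. The median log2 fold change was 2.12 over the 33 genes and 0 over all genes tested. All 33 passed the filter on low counts, but 8 of them, Tmem233, Prdm12, Mrgprd, Mrgprb4, Mrgprb5, Mrgprx1, Ptgir and Runx3, passed through the nivolumab libraries alone and so had to differ, and neither the count nor the median is support on its own. At an unadjusted p below 0.05 there were 19 genes of 33, against 34.2% of all genes. The nivolumab libraries lay wholly above the cancer libraries in 26 genes, against 17.6% of all genes, and wholly below in 1 gene, against 23.2% of all genes.

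Tubb3 averaged 1092 ± 52.2 CPM in nivolumab and 682 ± 81.8 in cancer libraries (SD, n = 3 each), with a log2 fold change of 0.71 (SE 0.08, edgeR adjusted p = 0.00169). Gfra2 averaged 74.7 ± 19.1 CPM in nivolumab and 33.9 ± 3.46 in cancer libraries, with a log2 fold change of 1.17 (SE 0.22, edgeR adjusted p = 0.0102). Ntrk2 averaged 397 ± 14.6 CPM in nivolumab and 512 ± 25 in cancer libraries, with a log2 fold change of -0.33 (SE 0.06, edgeR adjusted p = 0.00596). These 3 were past the threshold under all 16 alternatives tried, including the omission of each library. Nefl, Nefh and Etv1 rose by less than Tubb3. Nefl had a log2 fold change of 0.42 (SE 0.09, edgeR adjusted p = 0.0115). Nefh had a log2 fold change of 0.39 (SE 0.09, edgeR adjusted p = 0.0213). Etv1 had a log2 fold change of 0.62 (SE 0.15, edgeR adjusted p = 0.0253). Nefm, at a log2 fold change of 0.32 (SE 0.10, edgeR adjusted p = 0.0529), did not pass.

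The larger fold changes came with larger errors. Sncg had a log2 fold change of 1.80 (SE 0.47, edgeR adjusted p = 0.0436). Pou4f1 had a log2 fold change of 2.12 (SE 0.55, edgeR adjusted p = 0.0401). Cysltr2 had a log2 fold change of 2.42 (SE 0.67, edgeR adjusted p = 0.0389). Mrgprb5 was at least 21.7-fold higher in nivolumab than in cancer, from a floor of 3 counts over the cancer group, with an edgeR adjusted p of 0.0444, but since it passed the filter through the nivolumab libraries alone this call is a description. Its fitted log2 fold change depends on the prior count and is no bound. By contrast Pirt, with a log2 fold change of 3.26 (SE 2.24, edgeR adjusted p = 0.35), did not pass, nor did Prdm12 with a log2 fold change of 3.27 (SE 2.03, edgeR adjusted p = 0.301). Mrgprd did not pass either, with a log2 fold change of 3.24 (SE 2.05, edgeR adjusted p = 0.311). In these 3 genes all nivolumab libraries were above all cancer libraries, and cancer 3 stood far above cancer 1 and 2.

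The count of calls depended on single libraries. Without nivolumab 3, 3 genes passed (Tubb3, Gfra2 and Ntrk2), against 7.03% of all genes. Without nivolumab 1, 5 passed, against 5.61% of all genes, and without cancer 2, 5 passed, against 8.32%. The labels give replicate numbers but state no pairing. With the replicate number as a block, 23 genes passed, 22 higher and 1 lower, including all 10, while the share of all genes called was 22.5%. Pirt then had a log2 fold change of 6.13 (SE 1.84, edgeR adjusted p = 0.089), and Avil, Tmem233, Prdm12, Fxyd2, Mrgprd, Mrgprx1, Gfra3, Fxyd7 and Ntrk3 also did not pass. Without cancer 3 and sham 3 together, 29 passed, 28 higher and 1 lower, against 19% of all genes. Those 2 libraries had been singled out by these same genes, so that count is a description and no support. They also share the replicate number 3, so the block fit takes up what they have in common. Its 23 calls and its value for Pirt are therefore descriptions too. DESeq2 called 17 of the 33, against 22.7% of all genes with an adjusted p.

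Set against sham in the dorsal horn, nivolumab showed higher Tubb3 and Gfra2 and lower Ntrk2, and the other 30 of 33 genes did not pass, where 8.51% of all genes passed, 4.67% higher and 3.84% lower. Tubb3 averaged 1092 ± 52.2 CPM in nivolumab and 745 ± 30.7 in sham libraries (SD, n = 3 each), with a log2 fold change of 0.51 (SE 0.08, edgeR adjusted p = 0.01). Gfra2 averaged 74.7 ± 19.1 CPM in nivolumab and 30.2 ± 6.85 in sham libraries, with a log2 fold change of 1.26 (SE 0.22, edgeR adjusted p = 0.0138). Ntrk2 averaged 397 ± 14.6 CPM in nivolumab and 510.5 ± 25.3 in sham libraries, with a log2 fold change of -0.40 (SE 0.06, edgeR adjusted p = 0.00642). This comparison shares the nivolumab libraries with the one against cancer. The median log2 fold change was 1.99 over the 33 genes and 0 over all genes. Without overlap, 22 genes were higher, against 22.1% of all genes, and 1 was lower, against 13% of all genes. The same 8 genes passed the filter through the nivolumab libraries alone, so here too neither the median nor these counts are support. At an unadjusted p below 0.05 there were 14 genes of 33, against 26.1% of all genes. Without nivolumab 1 no gene of the list passed in edgeR, against 0.691% of all genes. Without cancer 3, 5 passed, against 9.01% of all genes, and without sham 3, 8 passed, against 6.23%. Without cancer 3 and sham 3 together 26 passed, against 9.99% of all genes, and DESeq2 called 9, against 13.9%. The neurofilament genes did not pass, with log2 fold changes of -0.10 for Nefh, -0.11 for Nefm and -0.01 for Nefl.

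Cancer against sham gave 0 calls among the 33 genes in the dorsal horn by edgeR, where 0.323% of all genes passed, and 5 had an unadjusted p below 0.05, against 13.1% of all genes. DESeq2 called 3, Nefh, Nefm and Nefl, all lower, against 2.73% of all genes. In edgeR the log2 fold change of -0.49 (SE 0.09, edgeR adjusted p = 0.0624) of Nefh, the log2 fold change of -0.43 (SE 0.09, edgeR adjusted p = 0.07) of Nefl and the log2 fold change of -0.43 (SE 0.10, edgeR adjusted p = 0.114) of Nefm did not pass. The cancer libraries lay wholly below the sham libraries in these 3 genes, against 3.95% of all genes, and wholly above in none, against 17.4% of all genes. Nefh averaged 1942 ± 117 CPM in cancer and 2588 ± 247 in sham libraries (SD, n = 3 each). Without cancer 1, 1 gene passed, and it was lower, against 0.91% of all genes. The median log2 fold change was -0.13 over the 33 genes and 0.01 over all genes. The other genes overlapped between the groups, with Pirt at a log2 fold change of -0.20 (SE 2.11, edgeR adjusted p = 0.978).

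**Figure D3:**
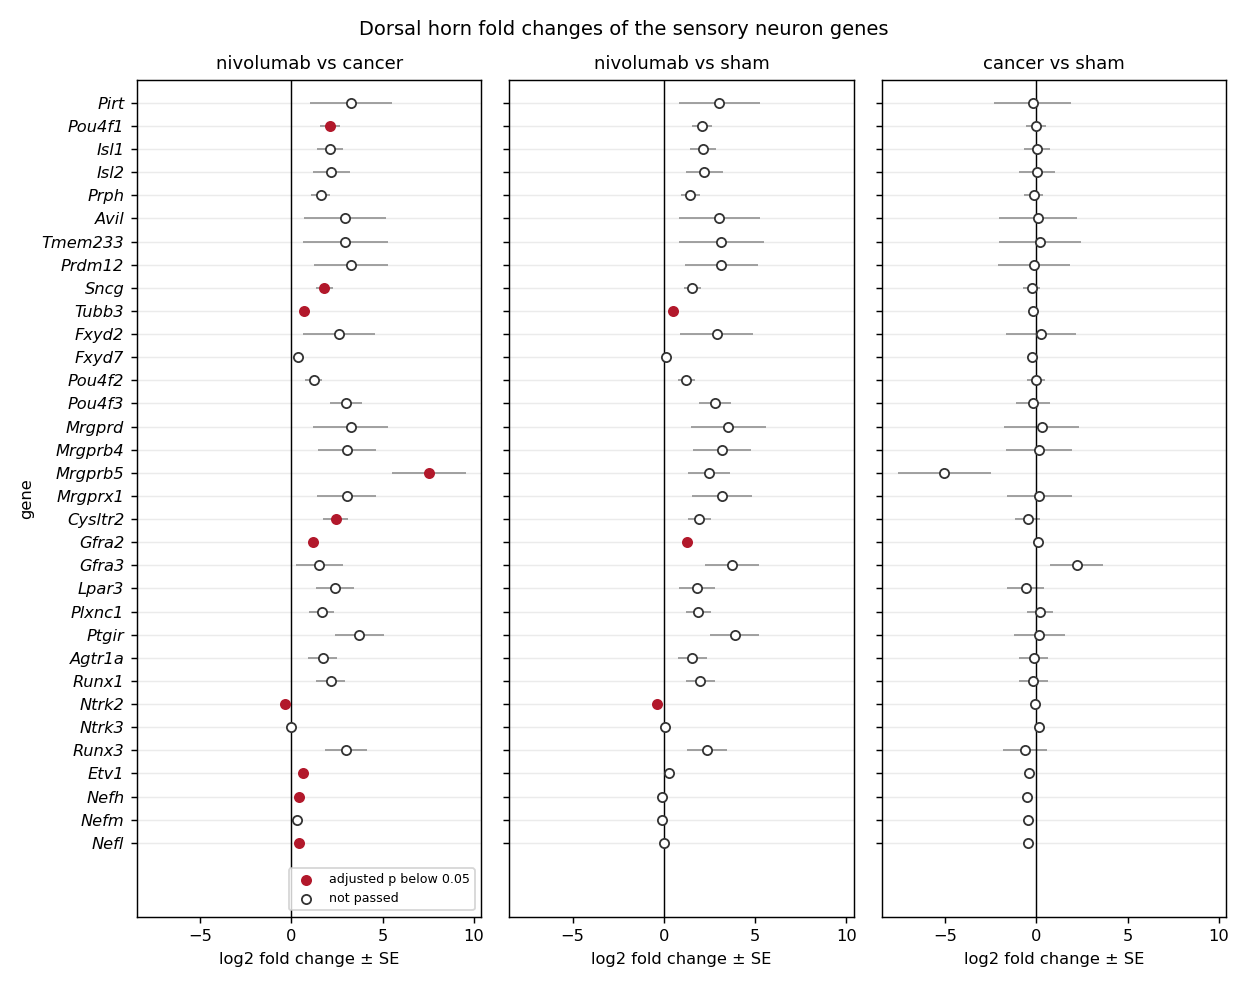
Log2 fold changes with their SE for the 33 genes in the 3 dorsal horn comparisons, from edgeR, with filled red points for an adjusted p below 0.05 and open points for the rest. Filled points are 10 in nivolumab against cancer, 3 in nivolumab against sham and 0 in cancer against sham, and the fitted values of Mrgprb5 against or in cancer rest on a group at 0 counts.

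Other sensory neuron genes and markers of nearby tissue were counted in the same fits. Of 18 tested genes of a second list of pain and itch neuron genes, 5 were higher in nivolumab than in cancer and 0 lower. Of all genes, 8.63% were called higher. The median log2 fold change was 2.33 over the 18 genes and 0 over all genes. This list was also chosen with earlier results known. Which of its genes passed the filter through the nivolumab libraries alone was not checked, so neither the count nor the median is support. The 4 with the smallest adjusted p were the calcitonin gene-related peptide gene Calcb, the GDNF-family co-receptor Ret, the substance P precursor Tac1 and the cold-gated channel Trpm8. Calcb had 31.1, 19.9 and 36.4 CPM in nivolumab, 9.92, 9.33 and 13.2 in cancer and 10.002, 7.78 and 13.5 in sham libraries, with a log2 fold change of 1.47 (SE 0.26, edgeR adjusted p = 0.00832) against cancer. Tac1 had 57.1, 40.9 and 52.8 CPM in nivolumab, 26.4, 23.8 and 31.2 in cancer and 11, 14.6 and 20.7 in sham libraries, with a log2 fold change of 1.66 (SE 0.22, edgeR adjusted p = 0.00711) against sham. Both peptide genes were higher in every nivolumab library than in any other. Against sham, 3 of the 18 were higher and 0 lower in nivolumab, where 4.67% of all genes were called higher. Cancer against sham gave 0 of 18 by edgeR. Large-diameter or touch neuron genes outside the list were mixed. Of 13, 1 was higher and 2 were lower in nivolumab than in cancer, with a median log2 fold change of 0.13, and the same counts held against sham, with a median of 0.16. Among all genes, 8.63% were called higher and 8.6% lower against cancer, and 4.67% and 3.84% against sham. Against cancer, the vesicular glutamate transporter gene Slc17a8 had a log2 fold change of 1.07 (SE 0.32, edgeR adjusted p = 0.0476). The sodium channel gene Scn8a had a log2 fold change of -0.29 (SE 0.06, edgeR adjusted p = 0.0109), and Whrn, a scaffold protein gene, had a log2 fold change of -0.39 (SE 0.09, edgeR adjusted p = 0.0197).

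Markers of other cells and tissues also differed between the dorsal horn groups. The summed CPM of 12 Schwann cell genes was 2369 to 2712 in nivolumab, 1074 to 1478 in cancer and 1530 to 2280 in sham libraries. Of the 12, 4 were higher in nivolumab than in cancer (Pmp2, Dhh, Gldn and Pmp22) and 0 lower. Of all genes, 8.63% were called higher and 8.6% lower in that comparison. Within the cancer and sham groups the Schwann cell sum was not highest in library 3, at 1478, 1074 and 1395 CPM in cancer libraries and 1530.1, 2280.1 and 1547 in sham libraries. The 6 skeletal muscle genes measured summed to 64.1 to 769 CPM in nivolumab, 4.35 to 219 in cancer and 2.84 to 116 in sham libraries, none passing in edgeR. The muscle sum was 4.35 CPM in cancer 3 and 116 in sham 3. The 6 connective tissue and meninges genes measured summed to 117, 130 and 167 CPM in nivolumab, 60.1, 42 and 72 in cancer and 40.7, 118 and 91.8 in sham libraries. Of the 6, 1 (Lum, a collagen-binding proteoglycan) was higher in nivolumab than in cancer, with a log2 fold change of 3.01 (SE 0.65, edgeR adjusted p = 0.0177), and 0 passed against sham. The share of all genes called higher against cancer was 8.63%, and 8.51% passed against sham. All 4 red blood cell genes measured were lower in nivolumab than in sham and lower in cancer than in sham. Among all genes, 3.84% were called lower in nivolumab than in sham, and 0.323% passed in cancer against sham. The 9 satellite glia genes, which cord glia also express, summed to 16972 to 19200 CPM in nivolumab, 9368 to 13784 in cancer and 14060 to 19934 in sham libraries. Of the 11 dorsal horn neuron genes, 7 were lower and 0 higher in nivolumab than in cancer, against 8.6% of all genes called lower. Among the 7 was the glycine transporter gene Slc6a5 with a log2 fold change of -0.60 (SE 0.07, edgeR adjusted p = 0.00187). The calls did not extend to the whole list. Slc17a6, Rbfox3, Lmx1b and Tlx3, named after their values were seen, did not pass, with log2 fold changes of -0.02, -0.05, -0.39 and 1.58. Tlx3 had 9.61, 5.02 and 9.46 CPM in nivolumab, 2.68, 1.24 and 4.35 in cancer and 1.23, 1.95 and 4.13 in sham libraries. It was thus high in the same libraries as the ganglion genes, and its value is no measure of dorsal horn neurons alone. None of these lists had a gene at or under the floor in all libraries. Their part in the results was not tested. Of 10 motor neuron genes, which include Isl1 and Prph, 1 (Ret) was higher in nivolumab than in cancer, against 8.63% of all genes. Chat, the enzyme of acetylcholine synthesis, had 21.9, 35.7 and 29 CPM in nivolumab, 43.5, 35.5 and 48.8 in cancer and 49.4, 35.6 and 41.8 in sham libraries. Chat was named after its values were seen.

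In the colon the cell bodies of these neurons are absent and enteric neurons, the intrinsic neurons of the gut, share several of their genes. Of the 33 genes measured in the dorsal horn, 6 were not analysed in the colon (Prdm12, Pou4f2, Pou4f3, Mrgprb4, Mrgprb5 and Mrgprx1). Of the 27 with colon values, 25 passed the filter on low counts, and none passed the test in any of the 3 comparisons by edgeR, nor did any of all 13445 genes tested (0%). At an unadjusted p below 0.05 there were 3 genes for nivolumab against cancer, 2 for nivolumab against sham and 1 for cancer against sham, and DESeq2 called 0 of the 27 in each. Among all genes, 9.84%, 6.45% and 10.9% had an unadjusted p below 0.05 in these comparisons, and DESeq2 called 1.23%, 0.982% and 2.58%. The median log2 fold changes over the 25 genes were -0.62, 0.03 and 0.5 in the same order of comparisons, against 0.03, 0.03 and 0 over all genes. The spread was wider in the colon, with a biological coefficient of variation of 0.376 against 0.17 in the dorsal horn.

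Pirt had 26, 11 and 15.3 CPM in the nivolumab, 7.56, 75.2 and 13.9 in the cancer and 8.44, 24.8 and 1.15 in the sham colon libraries. Prph had 40.6, 20.9 and 24.1 CPM in nivolumab, 19.7, 104 and 28.9 in cancer and 16.6, 38.1 and 1.68 in sham colon libraries. Tubb3 had 21.6, 15 and 16.9 CPM in nivolumab, 6.87, 54 and 15.1 in cancer and 8.8, 22 and 1.84 in sham colon libraries. All 3 peaked in cancer 2 and were lowest in sham 3. The same held for 13 of the 27 genes, the others being Isl2, Sncg, Fxyd7, Ptgir, Agtr1a, Ntrk3, Etv1, Nefh, Nefm and Nefl. The share of all colon genes with that order was not computed, so the count is a description. The summed CPM of 11 enteric neuron genes was also highest in cancer 2 and lowest in sham 3, at 213, 129 and 176 in nivolumab, 120.4, 672 and 174 in cancer and 110.1, 292 and 23.4 in sham libraries. How much of the 13 genes came from enteric neurons was not tested.

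Mrgprd and Tmem233 were at or near the floor in the colon, whereas Pirt, Avil and Ptgir were above it in all 9 libraries. Mrgprd had 3 counts in nivolumab 1 and none in the other 8 libraries, and Tmem233 had 5 counts in sham 1 and none elsewhere. Avil had 14.1, 6.14 and 10.6 CPM in nivolumab, 13.7, 21.3 and 27.9 in cancer and 22.7, 23 and 19.7 in sham colon libraries, and did not pass, with a log2 fold change of -1.03 (SE 0.36, edgeR adjusted p = 0.48) for nivolumab against cancer. Avil is also a gene of tuft cells, chemosensory cells of the gut lining, and 6 tuft cell genes summed to 45.1, 19.7 and 42.5 CPM in nivolumab, 76, 68.4 and 83.5 in cancer and 90.8, 88.8 and 76.2 in sham libraries. Both were lower in nivolumab 2 than in any other library. Lpar3 had 0.268, 0.167 and 0.347 CPM in nivolumab, 1.12, 0.444 and 1.44 in cancer and 0.877, 0.9 and 2.5 in sham colon libraries, below every cancer and sham library in each nivolumab library, and did not pass, with a log2 fold change of -2.43 (SE 0.71, edgeR adjusted p = 0.567) for nivolumab against sham. Isl1 had 0.919, 1.87 and 3.43 CPM in nivolumab, 0.387, 0.533 and 0.718 in cancer and 1.56, 1.35 and 1.61 in sham colon libraries, with a log2 fold change of 1.89 (SE 0.56, edgeR adjusted p = 0.414) for nivolumab against cancer. Runx1 ranged from 13.6 to 26 CPM and Runx3 from 3.68 to 11.7 CPM over the 9 colon libraries, and both are also genes of blood cells.

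**Figure D4:**
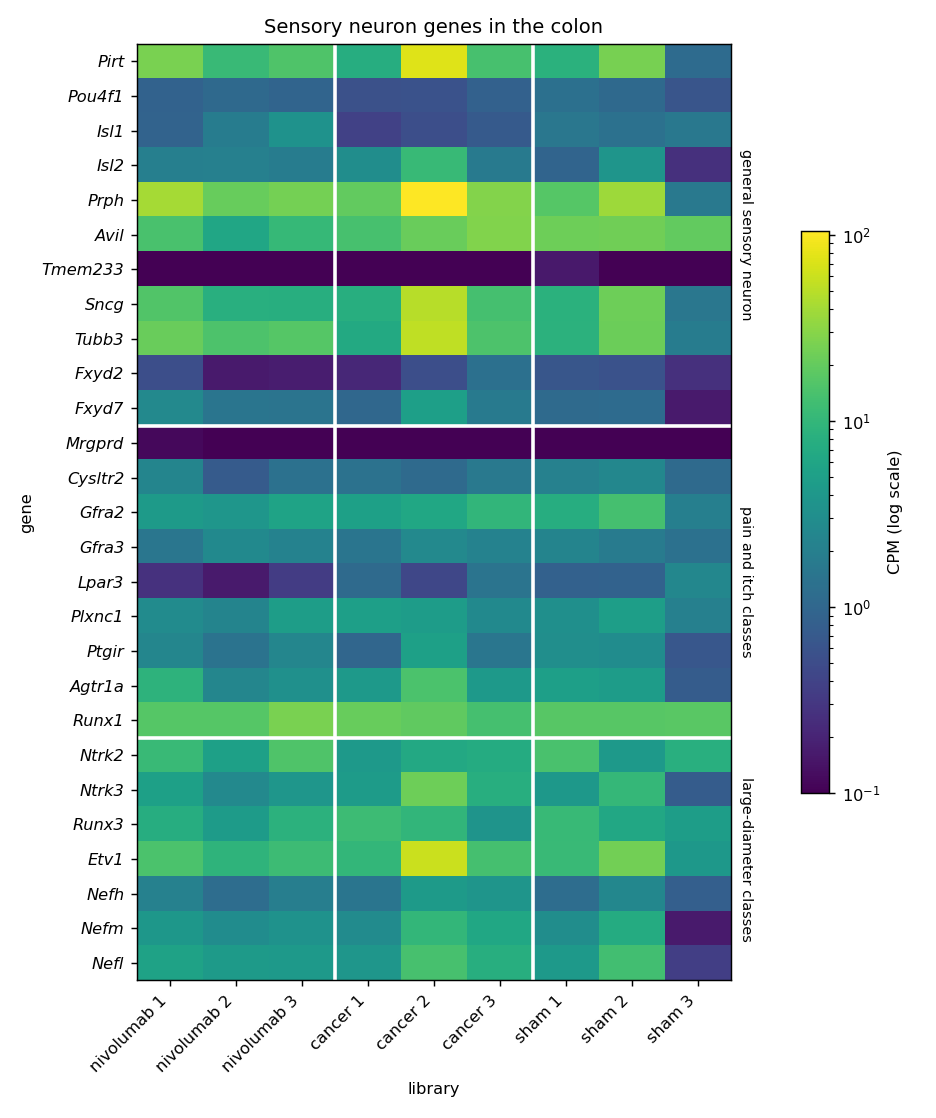
CPM of the 27 sensory neuron genes with values in the 9 colon libraries, coloured on a log scale with values under 0.1 drawn as 0.1, with rows grouped by role and columns by group. Pirt, Prph, Sncg, Tubb3 and Etv1 are brightest in cancer 2 and darkest in sham 3, and Mrgprd and Tmem233 are near the bottom of the scale throughout.

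Whether the dorsal horn responses differed from those of the colon was tested for 27 genes in a fit of all 18 libraries over 14164 genes. None of the 27 passed for nivolumab against cancer, nivolumab against sham or cancer against sham in edgeR, where 0.127%, 0.184% and 0.155% of all genes passed, and 13, 8 and 2 of the 27 had an unadjusted p below 0.05, against 16.4%, 12.7% and 10.9% of all genes. DESeq2 was not run on this fit. The log2 difference between tissues (dorsal horn minus colon) for nivolumab against cancer was 4.38 (SE 1.29, edgeR adjusted p = 0.125) for Lpar3 and 1.86 (SE 0.64, edgeR adjusted p = 0.186) for Gfra2. For Pirt it was 4.19 (SE 2.51, edgeR adjusted p = 0.416). Without dorsal horn cancer 3 and sham 3, which were singled out by these genes, 9 of 27 passed for nivolumab against cancer and 8 for nivolumab against sham, all with a larger value in the dorsal horn, against 0.59% and 0.597% of all genes. With the replicate number within tissue as a block, 1 passed in each of these comparisons, against 0.678% and 0.339% of all genes.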

How the data were processed

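Counts per gene were deposited by the authors as whole numbers, in 1 table per tissue and not normalised, and all columns were matched to libraries. TRIzol extraction and SmartScribe reverse transcription are given per the labels' protocols. FastQC 0.11.5, Trimmomatic, HISAT2, StringTie and GRCm38 are named in the submitters' processing notes. No source used here states the counting tool, strand setting or annotation. The genes, lists and tests were chosen with earlier results of these data known.

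Levels are CPM, the count over the library's total count scaled to 1000000. Tests used edgeR 4.0.16 (quasi-likelihood, TMM scaling, default expression filter, robust) in R 4.3.3 on all 9 libraries of a tissue, two-sided, with Benjamini-Hochberg adjustment over all genes tested and a threshold of 0.05. They were also run on simulated counts with the same spread for every gene. That setting does not cover genes with a single library far above the rest of its group. DESeq2 1.42.0 was an alternative. Intervals and the floor of 3 counts cover counting error only, as PCR copies cannot be told from separate molecules. No 2 libraries of a group agreed within sampling noise (lowest chi-square per degree of freedom 9.62 in the dorsal horn and 71 in the colon). Replicate numbers come from the labels. Deviations from the group means of same-numbered nivolumab and cancer dorsal horn libraries correlated across genes at r = 0.19, 0.28 and 0.19. Differently numbered pairs of these libraries gave r = -0.32 to 0.11. In no other comparison were all same-numbered values over 0.1. Deviations within a group cancel out, so these values are not independent of each other. Whether the numbers pair the libraries was therefore not established. The values given are from the fit without the replicate number. The fit with it as a block is an alternative, named beside its count of calls. All measured genes of the list are described, with full statistics for those past the threshold. Of the other lists, up to 4 genes past the threshold are named by smallest adjusted p, and others named are said to be chosen after their values were seen. A gene of the large-diameter or touch list is not reported here and was left out of its counts. The labels give no batch.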

Additional observations from a re-analysis of the deposited data

How the results depend on the processing

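In the dorsal horn the direction of every call was the same under each alternative, and the number of calls moved. For nivolumab against cancer, 10 genes passed, against 17 with DESeq2, 23 with the replicate block, 29 without sham 3 and cancer 3 together, and 3 to 13 on leaving out each library in turn. For nivolumab against sham, 3 passed, against 9 with DESeq2, 26 without sham 3 and cancer 3, and 0 to 8 on leaving out each library. The replicate block gave 15 there, where deviations of same-numbered libraries correlated at r = -0.08, 0 and 0.24. No share of all genes is set beside that 15, so it cannot be judged against them. Counts with the block, like those without sham 3 and cancer 3, are descriptions and no support. For cancer against sham, 0 passed, against 3 with DESeq2 (all lower), 1 with the replicate block, and 0 to 1 on leaving out each library. The tissue difference gave 0 calls, against 1 and 1 with the replicate block, and 9 and 8 without sham 3 and cancer 3, for nivolumab against cancer and against sham. DESeq2 size factors, upper-quartile factors, no expression filter and a fit of only the groups compared changed no count by over 1.5 times. Of 208 alternative values for the genes past the threshold, 171 were past it too and 37 were not, with no change of sign. Group means on TMM-scaled library sizes moved by less than 1 SD in 173 of 174 cases, whereas all 27 class shares moved on division by gene length. The causes of these changes were not tested. With 3 libraries a group, genes at few counts, such as Mrgprb5, are not measured closely.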

Other observations

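A few itch neuron genes, picked here after their values were seen, stood high relative to Pirt in dorsal horn cancer 3. That library had the lowest Pirt level of the 5 rich in it, and 11 of the 19 genes set against Pirt had their highest ratio there, so a top ratio is not particular to these genes. Il31ra, a receptor subunit for interleukin 31, stood at 2.62%, 1.63% and 3.83% of the Pirt count in nivolumab 1, 2 and 3, 12.7% in cancer 3 and 3.73% in sham 3. Nppb, the natriuretic peptide that itch neurons release, stood at 0.798%, 0.48% and 0.898% in nivolumab 1, 2 and 3, 2.56% in cancer 3 and 0.813% in sham 3. Osmr, the partner subunit of Il31ra, which non-neuronal cells also make, stood at 6.92%, 8.19% and 8.36% in nivolumab 1, 2 and 3, 42.2% in cancer 3 and 20.7% in sham 3. Gfra3 had its highest ratio in cancer 3 as well, at 10.3%. In each of these 4 genes the ratio in cancer 3 was above that in the other 4 libraries rich in Pirt. Cysltr2, also found in itch neurons, stood at 1.48%, 0.906% and 1.64% in nivolumab 1, 2 and 3, 1.68% in cancer 3 and 1.59% in sham 3. Mrgprd, of another class, stood at 12.5% to 12.6% in the nivolumab libraries, 13.2% in cancer 3 and 8.98% in sham 3. These are values of single libraries, with no test.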
